A study of Mus musculus with 67 samples.

Results

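A group of 66 genes was chosen for lower RNA levels in cultured mouse microglia lacking Orai1 (KO) than in control (WT) cultures, and for mean responses to both stimuli that stayed within a set limit in either genotype. They were chosen by their culture values from 45707 rows of a count table, of which 28306 had a count in any culture library. The choice used library-size scaled counts (CPM), computed from each library's total and averaged as log2(CPM + 1) over the libraries of a group. A gene was taken when its KO mean with vehicle lay at least 1 unit below its WT mean with vehicle, and when the means with LPS and with Tg+PDBu stayed within 1 unit of the vehicle mean in both genotypes. Up to 200 genes could be taken, and 66 met the conditions. Neither count table carries gene names or identifiers. Genes are therefore given by their row number from the top, and no name, sequence or function can be attached to them.

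Microglia are the resident immune cells of the brain. Orai1 is a plasma membrane protein that lets calcium in once the stores in the endoplasmic reticulum have run low, and calcium entering this way activates calcineurin and NFAT transcription factors. Thapsigargin (Tg) empties these stores by blocking the pump that fills them, PDBu is a phorbol ester acting on protein kinase C, and LPS is a bacterial cell wall component sensed by the receptor TLR4. Levels of many microglial genes are known to shift when the cells are taken from the brain into culture.

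All mice carried the floxed allele (Orai1fl/fl), and KO mice also carried Cx3CR1-cre/ERT2, a Cre made in cells that use the Cx3cr1 locus and activated by tamoxifen. WT mice had no Cre, so loss of Orai1 and presence of the Cre cannot be told apart. The cultures were hippocampal microglia of both sexes, shaken off mixed glial cultures of mice at postnatal days 2 to 5. KO and WT cultures alike received 1 µM hydroxytamoxifen, followed by vehicle, LPS (10 ng/ml) or Tg (0.2 µM) with PDBu (50 nM) for 6 h. There were 6 KO and 6 WT libraries with vehicle, 5 KO and 6 WT with LPS, and 5 KO and 6 WT with Tg+PDBu. The sorted microglia were isolated from whole brains of 10 to 12 week old mice that had all been given tamoxifen 30 to 35 days before and then received vehicle or LPS at 1 mg/kg. They comprised 6 KO and 6 WT libraries with vehicle, 3 KO and 3 WT male libraries 6 h after LPS, and 7 KO and 8 WT libraries 24 h after LPS.

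Culture libraries held between 7868694 and 16070721 counts each, and sorted libraries between 4989974 and 7596706. Culture libraries were made from 100 ng of polyA RNA and sorted libraries from 0.97 ng of total RNA, so the kits and the RNA input differ along with age and tissue. Without gene names, neither Orai1 nor markers of microglia or of other brain cells could be looked up, and their part in the results was not tested. In whole-sample RNA, fewer cells of a type and less RNA per cell cannot be told apart. The 3 libraries of WT female culture 3 stood apart, with 4 rows specific to males in sorted cells at 0.415 to 0.563 of their mean in male cultures, against 0 to 0.0436 in the 13 other female culture libraries. None of these 4 rows is among the 66. Numbers in the library names tie each culture library to a culture. The labels do not say which animals the cultures or the sorted libraries came from, so p-values measure the spread between these samples, which may be partly technical.

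The culture values chose the genes, and they are given here as a description, with no test. With vehicle, 288 rows lay at least 1 unit lower in KO, which is 1.8% when set against the 15979 rows with enough counts for testing, and 22.9% of the 288 kept all 4 stimulus responses within 1 unit. Among all rows tested, 63.8% did so. Of the 222 rows left out, 162 failed in both genotypes, 10 in KO alone and 50 in WT alone. The differences of the 66 genes ran from -2.32 to -1.0, with a median of -1.17, whereas the median of all rows tested was 0.16. Just inside the threshold were row 12010, at 363 CPM in KO and 723 CPM in WT, and row 25497, at 1.19 CPM in KO and 3.31 CPM in WT. Just outside were row 16366, at 12.5 CPM in KO and 25.6 CPM in WT, and row 15238, at 14.0 CPM in KO and 28.5 CPM in WT.

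The levels spanned a wide range. Mean levels with vehicle ran from 0.564 to 2161 CPM in KO, with a median of 41.9 CPM, and from 2.69 to 7496 CPM in WT, with a median of 104 CPM. CPM is not corrected for gene length, so it orders samples and not genes. Together the 66 genes took 0.682% to 1.19% of the counts in KO vehicle libraries and 2.12% to 2.39% in WT vehicle libraries. The 2 shares did not overlap.

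The median level of the 66 genes separated the genotypes in every culture treatment. The choice of genes favoured this gap, so nothing is read from the separation. With vehicle, the median log2(CPM + 1) was 5.34 ± 0.33 over KO libraries and 6.70 ± 0.15 over WT libraries (SD, n = 6 each). With LPS it was 5.29 ± 0.21 in KO (n = 5) and 6.65 ± 0.12 in WT (n = 6). With Tg+PDBu it was 5.24 ± 0.46 in KO (n = 5) and 6.63 ± 0.18 in WT (n = 6). The highest KO library in any treatment, KO female culture 7 with Tg+PDBu at 5.98, stayed below the lowest WT library, at 6.45. The same culture also gave the highest KO library with vehicle, at 5.83. The lowest KO library, at 4.83, was KO female culture 16 with Tg+PDBu.

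**Figure D1:**
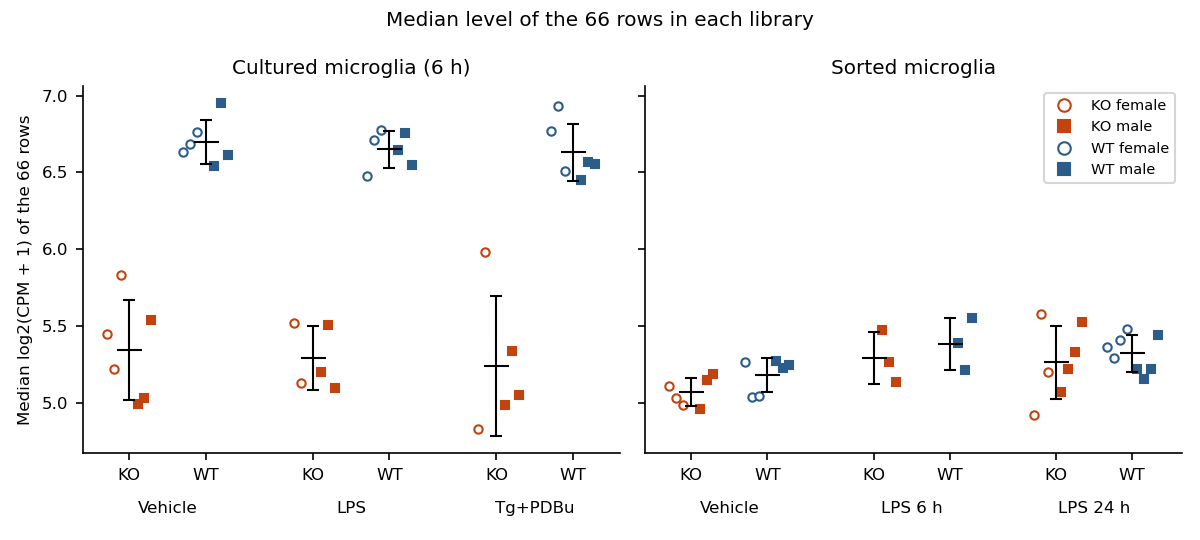
Median log2(CPM + 1) of the 66 genes in each library, for cultured (left) and sorted (right) microglia. Open circles are females, filled squares males, and bars the mean and SD over libraries. In culture, where the genes were chosen to be lower in KO, all KO libraries lie at or below 5.98 and all WT libraries at or above 6.45. KO and WT overlap in sorted cells, which took no part in the choice.

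In stimulated cultures KO also lay lower for most of the 66 genes. With LPS their KO minus WT difference had a median of -1.11, against 0.49 for all rows tested, and 37 of 66 lay at or below -1, where 3.35% of all rows tested did. With Tg+PDBu the median was -1.17, against 0.31 for all rows, and 43 of 66 lay at or below -1, where 3.4% of all rows did. In all 3 treatments 27 genes were at or below -1 and 65 were below 0. Because a response within 1 unit in each genotype limits how far the difference can move, these counts follow in part from the choice of genes. Most stimulated libraries also came from the same cultures as the vehicle libraries that chose the genes. They are therefore not an independent measure of the difference.

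Complete separation of KO below WT was seen for 53 of 66 genes with vehicle, where 7.97% of all rows tested showed it. With LPS it was seen for 47 of 66 genes, with 5.94% of all rows, and with Tg+PDBu for 47 of 66, with 8.14% of all rows. In an alternative chosen after the data were seen, leaving out WT female culture 3 gave 55, 49 and 49 genes with vehicle, LPS and Tg+PDBu, and 9.07%, 6.4% and 8.99% of all rows. Leaving out KO female culture 7 gave 60 genes and 9.64% of all rows with vehicle, and 54 genes and 10.3% of all rows with Tg+PDBu. The choice of genes used the vehicle libraries, so nothing is read from these counts.

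**Figure D2:**
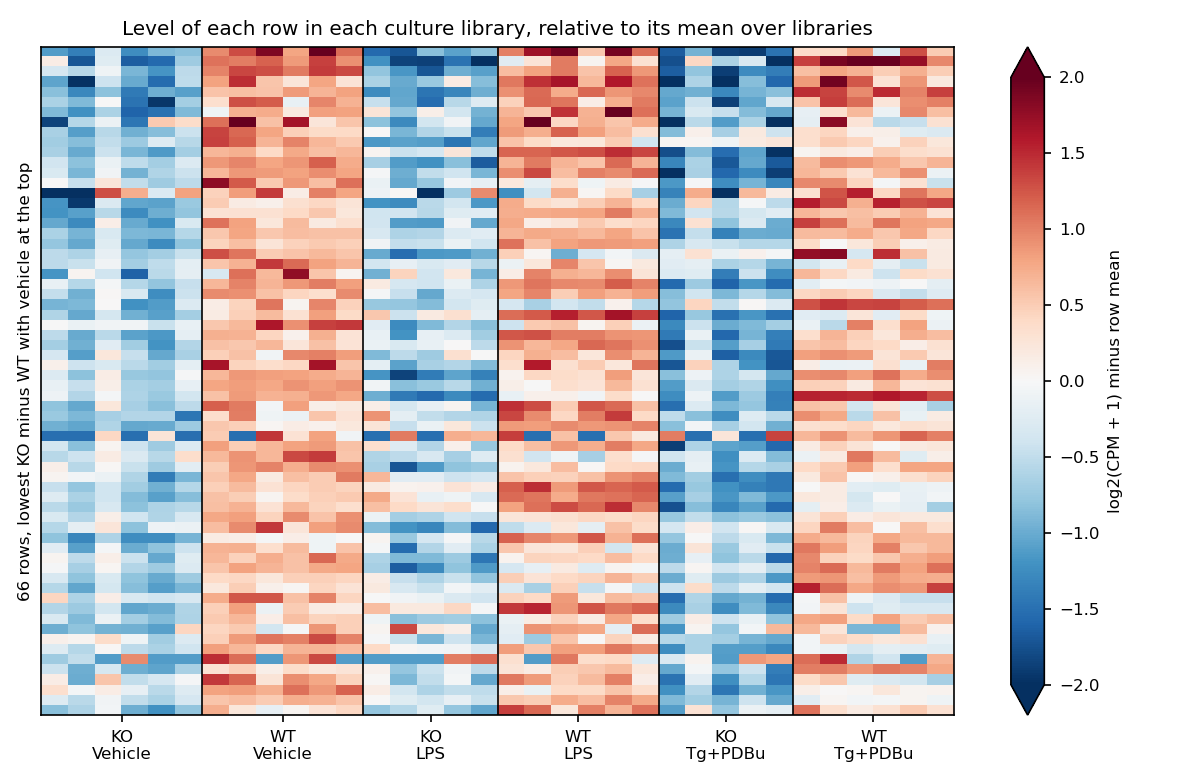
Level of the 66 genes (rows, ordered by their KO minus WT difference with vehicle, lowest at the top) in the 34 culture libraries (columns), as log2(CPM + 1) minus the gene's mean over all libraries. Blue is below and red above that mean. KO columns are mostly blue and WT columns mostly red in each treatment.

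The lowest difference belonged to row 10049, which held few counts in KO. With vehicle it stood at 0.761 to 2.77 CPM in the 6 KO libraries, with a median of 1.27, and at 6.88 to 19.6 CPM in the 6 WT libraries, with a median of 9.51. With LPS the 5 KO libraries read 0.543, 0.381, 1.55, 1.15 and 1.57 CPM, and the 6 WT libraries 5.64 to 16.3 CPM, with a median of 11.3. With Tg+PDBu the 5 KO libraries read 0.438, 1.37, 0.246, 0.221 and 0.637 CPM, and the 6 WT libraries 2.76 to 10.1 CPM, with a median of 5.22. KO lay below WT without overlap in each treatment.

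Row 3483 had the second lowest difference, at -2.03. With vehicle it ranged from 13.8 to 52.4 CPM in KO, with a median of 21.9, and from 86.4 to 123 CPM in WT, with a median of 99.7 (n = 6 each). With LPS the 5 KO libraries read 19.8, 12.3, 12.2, 16.3 and 9.28 CPM, against 40.3 to 98.1 CPM in WT, with a median of 58.0. With Tg+PDBu they read 13.2, 63.0, 30.0, 38.1 and 9.65 CPM, against 93.4 to 217 CPM in WT, with a median of 170. The 63.0 CPM was KO female culture 7, and no KO library reached the WT range.

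Row 1622 had the most counts of the 66 genes in WT cultures. With vehicle it ranged from 1398 to 3004 CPM in KO, with a median of 2182, and from 6287 to 8402 CPM in WT, with a median of 7865. With LPS the KO libraries read 1828, 1417, 966, 1621 and 1493 CPM, and the WT libraries 4734 to 7222 CPM. With Tg+PDBu the KO libraries read 1009, 1837, 857, 1330 and 1222 CPM, and the WT libraries 4484 to 5459 CPM. The genotypes did not overlap in any treatment, and both were lower with Tg+PDBu than with vehicle on average, at 1251 against 2161 CPM in KO and at 4934 against 7496 CPM in WT.

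Row 3422, with the second most counts, went the other way under stimulation. With vehicle it ranged from 724 to 1175 CPM in KO and from 1700 to 2002 CPM in WT. With LPS the KO libraries read 1858, 1076, 1423, 1760 and 1221 CPM, and the WT libraries 2920 to 4248 CPM. With Tg+PDBu the KO libraries read 1049, 1782, 1255, 1462 and 959 CPM, and the WT libraries 2435 to 3056 CPM. Both genotypes averaged more with LPS than with vehicle, at 1468 against 897 CPM in KO and at 3647 against 1867 CPM in WT, within the allowed 1 unit.

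The exception under LPS was row 10392, singled out after its values were seen. With vehicle it averaged 21.9 ± 4.83 CPM in KO and 46.3 ± 5.81 CPM in WT (SD, n = 6 each), without overlap. With LPS the KO libraries read 44.0, 30.6, 28.0, 36.7 and 33.1 CPM and overlapped the WT libraries, at 24.1 to 54.0 CPM. With Tg+PDBu KO averaged 33.6 ± 9.48 CPM (n = 5) and WT 84.9 ± 19.0 CPM (n = 6), again without overlap. Its mean difference with LPS was 0.06, the single one of the 66 above 0.

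Little movement with the stimuli was a condition of the choice, but it was not the same for every gene. Relative to vehicle, the median change with LPS was 0.14 in KO and -0.01 in WT, against -0.13 and -0.35 for all rows tested. With Tg+PDBu it was -0.34 in KO and -0.28 in WT, against -0.13 and -0.15 for all rows tested. Over the 3 treatment means a gene spanned a median of 0.71 units in KO and 0.70 units in WT. Only 9 of the 66 genes had all 4 changes within 0.5 units, so for most of them insensitive means within the chosen limit rather than flat.

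The sexes were compared in the vehicle cultures, in the same 12 libraries that chose the genes. In edgeR's quasi-likelihood test with Benjamini-Hochberg adjustment over all 15979 rows, the KO minus WT difference of males minus that of females was called (adjusted p under 0.05) for 0 of the 66 genes, with 0% of all rows called. DESeq2 called 2 of the 66 and 0.169% of all rows, and voom called 0 of the 66 and 0.0375% of all rows. With edgeR, 6 of the 66 and 825 of all 15979 rows were at an unadjusted p under 0.05. The edgeR values were negative (KO further below WT in males) for 52 genes and positive for 14. Their median was -0.32, against 0.03 for all rows. This lean is a description over genes that share libraries and was not tested. Row 5405 had the lowest p, at -1.19 ± 0.33 on the log2 scale (SE, adjusted p = 0.598), and DESeq2 called it (adjusted p = 0.0321). Over both genotypes, male minus female was called for 0 of 66 genes with 0.0125% of all rows called (0% higher and 0.0125% lower). With edgeR, 3 of the 66 and 430 of all 15979 rows were at an unadjusted p under 0.05. It was negative for 56 genes and positive for 10, with a median of -0.14 against -0.01 for all rows. Row 11355 had the lowest p, at -0.49. DESeq2 and voom with quality weights also called 0 of the 66 for male minus female, and their shares over all rows are not given here. Both sex contrasts counted WT female culture 3 as female, although it carried rows specific to males. This limits what they show about sex.

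In sorted cells 65 of the 66 genes had counts, and 53 had counts in all 33 libraries. The exception was row 33140, singled out after its value was seen, with 0 counts in sorted cells and 4.03 ± 1.21 CPM in WT vehicle cultures (SD, n = 6). Enough counts for testing were found for 61 genes. With vehicle the median over the 66 genes of the mean level was 34.8 CPM in sorted KO and 35.3 CPM in sorted WT cells. Under 1 CPM in sorted WT vehicle cells were 7 genes (10.6%), against 20.9% of all rows tested in culture. The choice left out rows with very few counts in WT vehicle cultures, where the lowest of the 66 genes averaged 2.69 CPM. These shares therefore do not compare like with like.

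Sorted and culture levels are compared here as a description, since the choice of genes favoured low KO and high WT levels in culture and tilts the 2 differences in opposite ways. In KO vehicle cells, sorted minus culture had a median of -0.13 in log2(CPM + 1) over the 66 genes and -0.53 over all rows tested in culture. In WT vehicle cells the medians were -1.20 over the 66 genes and -0.20 over all rows. A difference of at least 2 units downward was found for 9 of 66 genes (13.6%) and 17.5% of all rows in KO, and for 21 of 66 genes (31.8%) and 11.5% of all rows in WT. Over the 66 genes the Spearman correlation between sorted and culture level in WT was 0.684, a description over genes that share libraries and depth. The tables differ in age, brain region, RNA type and kit, and these cannot be told apart, so the difference was not tested.

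The largest falls among the 66 genes, in WT vehicle cells, were those of rows 1622 and 2284, at -8.75 and -8.17 in log2(CPM + 1). In KO vehicle cells, row 1622 ranged from 13.8 to 35.1 CPM after sorting and from 1398 to 3004 CPM in culture. In WT vehicle cells it ranged from 9.17 to 22.2 CPM after sorting and from 6287 to 8402 CPM in culture. Row 2284, singled out after its values were seen, averaged 2.42 ± 2.28 CPM in sorted KO and 2.87 ± 1.92 CPM in sorted WT vehicle cells, against 561 ± 119 CPM in cultured KO and 1111 ± 145 CPM in cultured WT vehicle cells (SD, n = 6 each).

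The genotype difference of the 66 genes was hardly seen in sorted cells. Their median log2(CPM + 1) per library ran from 4.96 to 5.19 in KO and from 5.04 to 5.27 in WT with vehicle (n = 6 each). It ran from 5.14 to 5.48 in KO and from 5.21 to 5.55 in WT 6 h after LPS (n = 3 each), and from 4.92 to 5.57 in KO (n = 7) and from 5.15 to 5.48 in WT (n = 8) 24 h after LPS. The genotypes overlapped at each time. The share of counts taken by the 66 genes overlapped as well, at 0.867% to 1.01% in KO and 0.892% to 1.04% in WT with vehicle. Because the genes were chosen for a large culture difference, a smaller one in other libraries can follow from the choice. How much of the contrast between culture and sorted cells comes from it was not tested.

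Gene by gene, 1 of the 61 tested genes was called lower and 0 higher in sorted KO cells with vehicle, with 0.0261% of all 15344 rows called in either direction (0.00652% lower and 0.0196% higher). The fold changes had a median of -0.01, against 0.00 for all rows tested, with 33 negative and 28 positive. At 24 h after LPS 1 was called lower and 0 higher, with 0.0196% of all rows called (0.00652% lower and 0.013% higher), and the median was -0.04. At 6 h after LPS in males 1 was called lower and 0 higher, again with 0.0196% of all rows (0.013% lower and 0.00652% higher), and the median was 0.03. Unadjusted p was under 0.05 for 2 genes with vehicle, 5 at 24 h and 1 at 6 h. Among all 15344 rows it was so for 728, 810 and 444. DESeq2 and voom also called 1 lower and 0 higher at each of these times, and their shares over all rows are not given here. The gene called by edgeR was row 14617 each time.

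For many genes the intervals were narrow enough to bound the difference. With vehicle the 95% interval lay wholly above -1 for 48 of the 61 genes, at 24 h for 46 and at 6 h for 44. The others either had wide intervals or were lower, as row 14617 was. Across the 61 genes the culture difference and the sorted difference with vehicle had a Spearman correlation of 0.03, a description over genes. The difference was negative in all 3 sorted comparisons for 10 genes and positive in all 3 for 8.

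**Figure D3:**
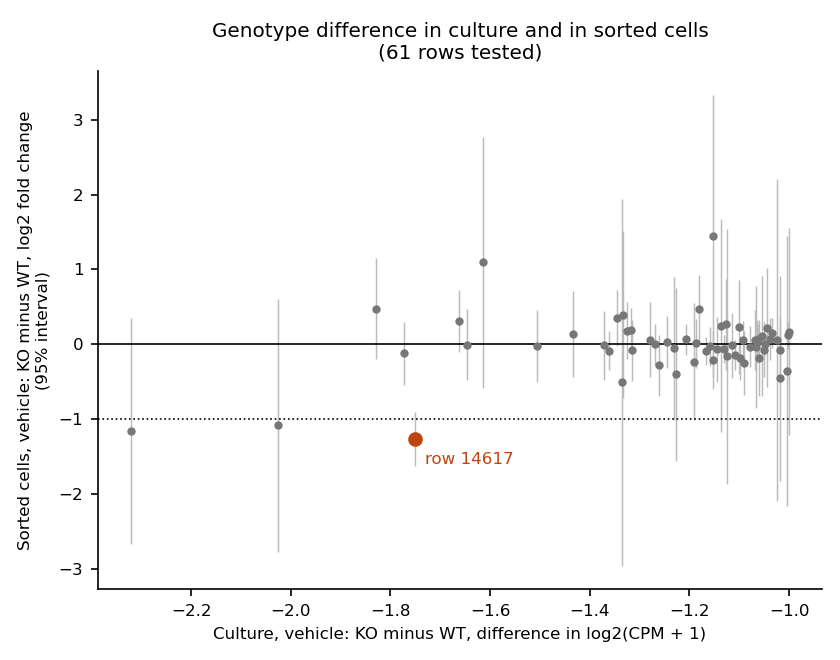
KO minus WT difference with vehicle for the 61 genes tested in sorted cells. The horizontal axis is the culture difference in log2(CPM + 1), at or below -1 by choice, and the vertical axis the log2 fold change in sorted cells with its 95% interval. Most points lie near 0 on the vertical axis, and row 14617 lies at -1.26 with an interval wholly below 0.

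Row 14617 was lower in KO in every setting measured. In culture with vehicle it ranged from 9.0 to 14.1 CPM in KO, with a median of 12.1, and from 38.8 to 47.1 CPM in WT, with a median of 40.7 (n = 6 each). With LPS the 5 KO cultures read 10.2, 11.9, 8.65, 9.85 and 12.5 CPM, against 43.7 to 58.1 CPM in WT, with a median of 50.0. With Tg+PDBu they read 12.2, 12.7, 9.93, 13.1 and 14.0 CPM, against 50.3 to 74.3 CPM in WT, with a median of 67.5. The KO values barely differed between treatments, while the WT mean was 64.2 CPM with Tg+PDBu and 42.0 CPM with vehicle.

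In sorted cells with vehicle, row 14617 ranged from 13.4 to 31.8 CPM in KO, with a median of 17.9, and from 36.6 to 57.6 CPM in WT, with a median of 49.6 (n = 6 each). At 6 h after LPS the 3 KO males read 15.4, 13.7 and 13.7 CPM, and the 3 WT males 41.2, 24.2 and 53.2 CPM. At 24 h it ranged from 11.4 to 17.8 CPM in KO, with a median of 14.3 (n = 7), and from 32.6 to 44.3 CPM in WT, with a median of 39.7 (n = 8). The genotypes did not overlap at any of these times. Among the genes tested, 1 of 61 separated completely with KO lower with vehicle (0.0847% of all rows), 3 of 61 at 6 h (3.77%) and 1 of 61 at 24 h (0.0196%). None did with KO higher, where 0.0261%, 2.79% and 0.013% of all rows did at these times.

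**Figure D4:**
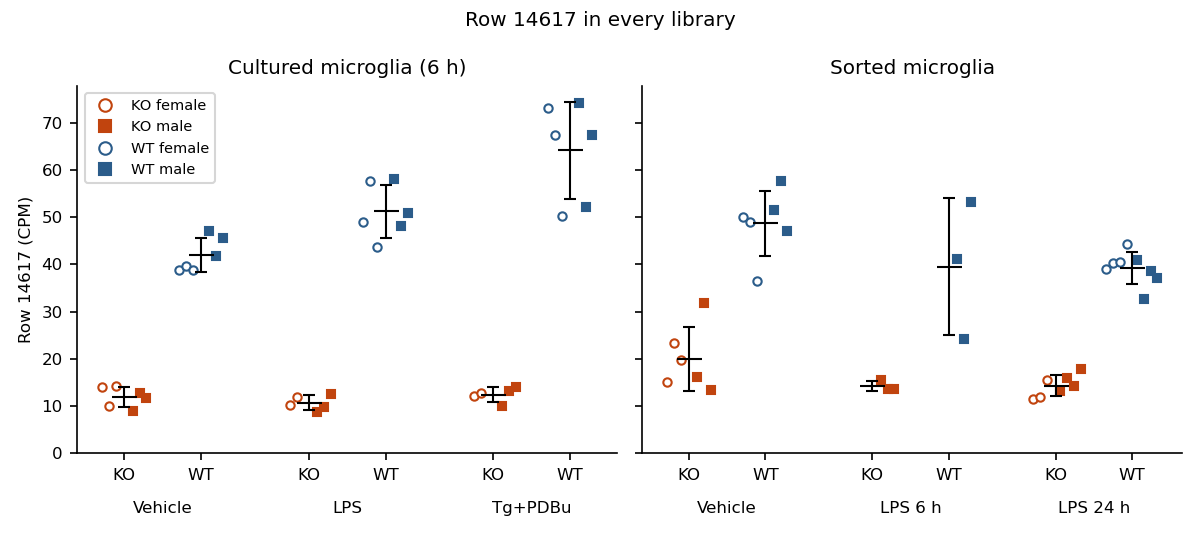
CPM of row 14617 in every library of the cultured (left) and sorted (right) microglia. Open circles are females, filled squares males, and bars the mean and SD over libraries. KO libraries read 8.65 to 31.8 CPM, and within each condition all of them lie below all WT libraries.

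The test gave a log2 fold change of -1.26 ± 0.18 with vehicle (SE, edgeR adjusted p = 0.00063, 95% interval -1.63 to -0.90). It was -1.49 ± 0.16 at 24 h (adjusted p = 5.69e-06, interval -1.83 to -1.16) and -1.46 ± 0.25 at 6 h in males (adjusted p = 0.0213, interval -1.98 to -0.94). The difference of the 24 h response between genotypes, -0.23 ± 0.24, was not called (adjusted p = 1.00). Leaving out any 1 library kept the call with vehicle, with adjusted p from 8.02e-06 to 0.00611, and at 24 h. At 6 h the call held in 1 of 6 such fits and was lost without any of the 3 KO replicates and without WT replicate 1 or 3, with adjusted p up to 0.193. Within the first and second run of library numbers the difference was -1.43 and -1.35 with vehicle (adjusted p = 0.221 and 0.0813) and -1.58 and -1.39 at 24 h (adjusted p = 0.0688 and 0.202), so its size held in each run but the call did not. Fitting the compared groups alone also ended the call with vehicle (adjusted p = 0.10) and at 6 h (adjusted p = 1.00).

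The 2 genes with the lowest KO minus WT difference in culture had wide intervals in sorted cells. Row 10049 ranged from 0.459 to 2.34 CPM in sorted KO vehicle cells and from 1.55 to 3.86 CPM in WT, overlapping, with a fold change of -1.16 and a 95% interval from -2.67 to 0.35. Row 3483 ranged from 0.170 to 4.39 CPM in KO and from 0.178 to 17.9 CPM in WT, with a fold change of -1.08 and an interval from -2.77 to 0.60. These and row 14617 were the 3 genes at or below -1 with vehicle. At or above 0.5 were rows 15865 (1.45, interval -0.43 to 3.33) and 22785 (1.09, interval -0.59 to 2.77), singled out after their values were seen. With vehicle both averaged under 1 CPM in sorted cells of either genotype. At 24 h after LPS row 22785 averaged 3.47 CPM in KO and 2.79 CPM in WT.

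The genes were chosen for small responses to LPS in culture. In the animal, the share of them called 24 h after LPS was near that of all rows tested in KO. It was above that of all rows in WT, and whether these shares differ was not tested. At 24 h in sorted KO cells 11 of 61 tested genes rose and 3 fell, together 23.0%, with 23.4% of all rows tested called (12.6% higher and 10.8% lower). In sorted WT cells 18 rose and 4 fell, together 36.1%, with 25.9% of all rows called (14.1% higher and 11.9% lower). The median fold change was 0.09 in KO and 0.13 in WT, against -0.01 and 0.00 for all rows tested. A called change of more than 2-fold was found for 7 genes in KO, with 8.4% of all rows, and 9 in WT, with 9.89% of all rows. In both genotypes 10 genes rose and 2 fell, 0 were called in opposite directions and 37 were called in neither. No matching joint counts over all rows are given, so nothing is read from these joint counts about the genes as a set. Within the first run of library numbers 5 rose and 6 fell in KO, with 13.9% of all rows called, and 10 rose and 5 fell in WT, with 14.9%. Within the second run 4 rose and 2 fell in KO, with 7.25% of all rows called, and 8 rose and 3 fell in WT, with 11.9%.

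**Figure D5:**
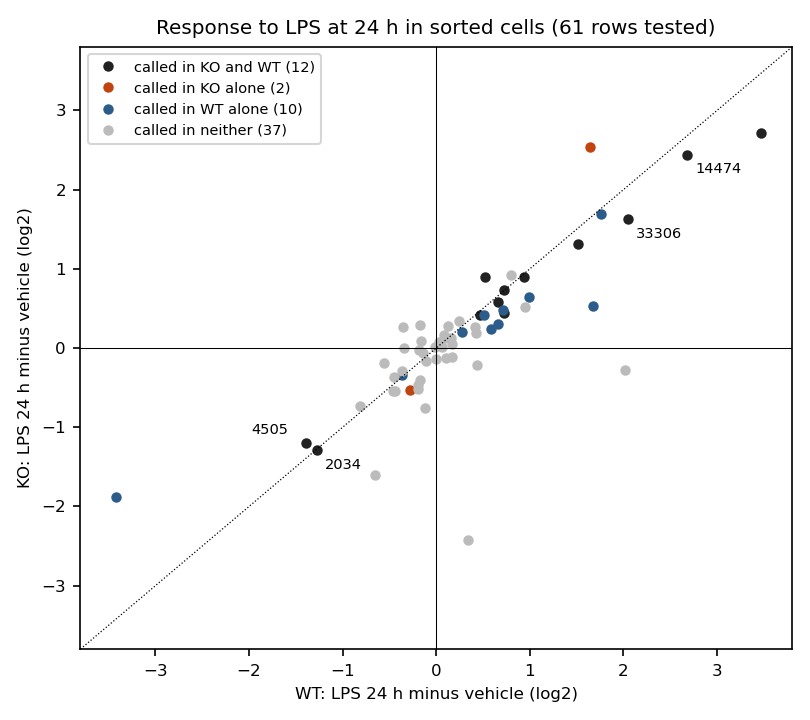
Log2 fold change 24 h after LPS relative to vehicle in sorted cells, for the 61 genes tested, in KO (vertical) and WT (horizontal). Black points were called in both genotypes (12), orange in KO alone (2), blue in WT alone (10) and grey in neither (37), and the dotted line marks equal change. Called genes lie on the same side of 0 in both genotypes, and no matching joint counts over all rows are given.

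Row 14474 rose in both genotypes. Its KO libraries ranged from 101 to 321 CPM at 24 h, with a median of 202 (n = 7), and from 29.6 to 48.7 CPM with vehicle, with a median of 35.4 (n = 6). The WT libraries ranged from 135 to 282 CPM at 24 h, with a median of 190 (n = 8), and from 26.3 to 38.2 CPM with vehicle, with a median of 34.3 (n = 6). The log2 change was 2.44 ± 0.28 in KO (SE, edgeR adjusted p = 6.37e-07) and 2.68 ± 0.28 in WT (adjusted p = 1.04e-07), with no overlap between LPS and vehicle. In culture it averaged 339 against 220 CPM with LPS and vehicle in KO, and 924 against 590 CPM in WT.

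Row 33306 had ranges of 61.1 to 140 CPM at 24 h and 26.7 to 56.8 CPM with vehicle in KO, and of 52.0 to 140 CPM at 24 h and 22.7 to 26.7 CPM with vehicle in WT. It rose by 1.63 ± 0.22 in KO (adjusted p = 4.87e-06, edgeR) and by 2.05 ± 0.22 in WT (adjusted p = 1.31e-07). In culture it was lower with LPS than with vehicle on average, at 31.3 against 62.6 CPM in KO and 107 against 138 CPM in WT.

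Among called genes whose mean log2 CPM reached 1, row 3483 had the largest rise in KO, at 2.54 ± 0.75 (edgeR adjusted p = 0.0149). Its KO libraries read 0.954 to 15.3 CPM at 24 h, with a median of 8.99, and 0.170 to 4.39 CPM with vehicle, with a median of 0.769, and these overlapped. In WT it read 0.162 to 28.5 CPM at 24 h and 0.178 to 17.9 CPM with vehicle, and its change of 1.64 ± 0.71 was not called (adjusted p = 0.0916). The KO call was lost without KO female LPS replicate 1 (adjusted p = 0.114), with voom (0.142) and within each run of library numbers (0.0994 and 0.243).

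Row 4505 fell in both genotypes. Its KO libraries ranged from 136 to 203 CPM at 24 h and from 361 to 451 CPM with vehicle, and its WT libraries from 112 to 207 CPM at 24 h and from 383 to 489 CPM with vehicle. The change was -1.19 ± 0.20 in KO (adjusted p = 9.14e-05, edgeR) and -1.39 ± 0.19 in WT (adjusted p = 5.84e-06), with no overlap. Row 2034 fell to 11.8 to 30.3 CPM at 24 h, against 35.6 to 67.8 CPM with vehicle, in KO, by -1.29 ± 0.20 (adjusted p = 3.21e-05). In WT it ranged from 13.0 to 29.7 CPM at 24 h and from 44.3 to 63.3 CPM with vehicle, a change of -1.28 ± 0.19 (adjusted p = 1.53e-05).

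The response at 24 h was not detectably different between the genotypes for the 61 genes. The KO response minus the WT response was called for 0 of 61, with 0% of all rows called, by edgeR. DESeq2 and voom also called 0 of the 61, and their shares over all rows are not given here. With edgeR, 1 of the 61 and 537 of all 15344 rows were at an unadjusted p under 0.05. Row 3422 had the lowest p, at 0.37 ± 0.18 (adjusted p = 1.00). It ranged from 738 to 1048 CPM at 24 h and from 410 to 581 CPM with vehicle in KO, and from 525.6 to 791 CPM at 24 h and from 392 to 582 CPM with vehicle in WT.

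At 6 h after LPS, 2 of 61 genes rose and 2 fell in KO males, together 6.56%, with 7.12% of all rows called (4.27% higher and 2.85% lower). In WT males 3 rose and 2 fell, together 8.20%, with 10.5% of all rows called (6.73% higher and 3.73% lower). The median change was -0.19 in KO and -0.21 in WT. The 6 h libraries carry a separate run of library numbers with no vehicle library in it, so time and run cannot be told apart. KO replicate 1 and WT replicate 3 also stood apart from the other 6 h libraries. The KO males read 114, 321 and 324 CPM for row 14474 and the WT males 370, 379 and 132 CPM. For row 4505 the KO males read 371, 189 and 168 CPM and the WT males 146, 132 and 400 CPM. Without KO replicate 1 the calls in KO numbered 16 rather than 4, with 14.7% rather than 7.12% of all rows called. Without WT replicate 3 those in WT numbered 14 rather than 5, with 18.9% rather than 10.5% of all rows called.

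Row 14474 rose at 6 h by 2.71 ± 0.41 in KO males (SE, edgeR adjusted p = 0.000622) and by 3.00 ± 0.42 in WT males (adjusted p = 0.00013), and kept both calls without any 1 library. Row 3422 rose by 0.83 ± 0.19 in KO (adjusted p = 0.0106) and 0.88 ± 0.19 in WT (adjusted p = 0.00419). Leaving out 1 library kept its call in 4 of 6 fits in KO and 5 of 6 in WT, with adjusted p up to 0.111 without KO LPS replicate 3 and 0.0789 without WT LPS replicate 2. Rows 10517 and 2344 fell, by -0.71 ± 0.19 and -0.67 ± 0.20 in KO and by -0.72 ± 0.19 and -0.64 ± 0.20 in WT. Each kept its call in 2 of 6 such fits in KO and 3 of 6 in WT. The adjusted p reached 0.183 in KO and 0.13 in WT for row 10517, and 0.223 in KO and 0.236 in WT for row 2344, each without an LPS replicate 2 or 3. The 3 KO males read 1172, 711 and 634 CPM for row 10517 against 1075 to 1480 CPM in KO vehicle libraries of both sexes, and the 3 WT males read 689, 700 and 1183 CPM against 1175 to 1497 CPM. Fitted on their own, the 6 h and vehicle groups gave 0 calls in either genotype, among the genes tested and among all rows.

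Sex made no detectable difference in sorted vehicle cells. Male minus female was called for 0 of 61 genes by edgeR, with 0.0587% of all rows called (0.0326% higher and 0.0261% lower), and a median of -0.01. Unadjusted p was under 0.05 for 2 of the 61 and for 1180 of all 15344 rows. DESeq2 and voom called 0 as well, and their shares over all rows are not given here. Row 7721 had the lowest p, at 0.23. By position in the table the 66 genes were spread out, from row 201 to row 37155, and 6 of them lay within 30 rows of another, with a smallest gap of 6 rows.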

How the data were processed

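The authors deposited whole-number counts per gene row for 34 culture and 33 sorted libraries, without normalization, and every column of both tables was used. Per the submitters' processing notes the tools were STAR 2.7.10a, Salmon 1.10.1 and Trim Galore 0.6.7, with the genome GRCm38, and counting settings are not given in the sources used here, so strand, shared reads and paralogs could not be judged. The members and lists were chosen with earlier results of these data known.

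For the choice of genes, CPM came from column sums and a pseudocount of 1 was added before taking log2. For tests, rows were filtered with filterByExpr (minimum count 10, minimum total 15) over each table, which left 15979 culture and 15344 sorted rows. They were scaled by TMM and fitted with edgeR 4.0.16 in R 4.3.3, with a separate mean per combination of genotype, sex and treatment. Sexes were weighted equally, quasi-likelihood F tests were two-sided, and p-values were adjusted by Benjamini-Hochberg over all rows of a table. SE values were derived from the fold change and F. The script was tested on simulated counts. The reads carry no molecular identifiers.

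Alternatives were RLE factors, no filter, DESeq2 1.42.0, limma 3.58.1 voom with quality weights, the compared groups alone, replicate number or culture as a block, the run of library numbers, and each library left out. Rows were named by the lowest difference and highest level in culture and, per test, by the size of called changes (mean log2 CPM of at least 1), at most 2 in each direction, or by the lowest p where none was called. No pair of libraries in a group agreed within sampling noise, with chi-square per degree of freedom of at least 13.7 in 32 culture pairs and 12.9 in 39 sorted pairs. Libraries with the same replicate number did not deviate together (median r = 0.05 in culture and 0.01 in sorted cells). Culture numbers did pair treatments (r from 0.118 to 0.526 in 30 pairs). The tested culture contrasts compared vehicle libraries of different cultures. Their spread was taken from all culture libraries as if independent, which can overstate the degrees of freedom. Other metadata supplied with the sorted table describe cultured cells, and the sample labels were followed.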

Additional observations from a re-analysis of the deposited data

Results flagged for a closer look

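For 14 named genes and the median level of the 66 genes, 150 groups of 4 to 10 libraries were examined for a single library far from the others (140 for named genes and 10 for the median). It was found in 10, all for named genes, where chance gives about 1 in 20 groups. In culture, row 2034 read 39.9 CPM in KO male LPS replicate 2, where the other KO LPS libraries read 17.2 to 22.4, and 99.9 CPM in WT female vehicle replicate 2, where the others read 42.2 to 62.8. Row 5405 read 366 CPM in KO female LPS replicate 1, with the others at 173 to 198. In KO female Tg+PDBu replicate 2, which is culture 7, row 7721 read 137 CPM (others 87.3 to 99.5) and row 11355 read 26.4 CPM (others 10.3 to 13.6).

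In sorted cells, row 10049 read 1.04 CPM in KO male 24 h LPS replicate 2 (others 0 to 0.443). Row 3483 read 4.39 CPM in KO female vehicle replicate 2 (others 0.170 to 1.38) and 17.9 CPM in WT male vehicle replicate 2 (others 0.178 to 3.81). Row 33306 read 56.8 CPM in KO male vehicle replicate 3 (others 26.7 to 30.8). Row 4505 read 207 CPM in WT male 24 h LPS replicate 2 (others 112 to 154).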

How the results depend on the processing

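The number of genes that met the conditions was 66, and it was 103 with TMM-scaled and 131 with RLE-scaled library sizes, of which 54 and 51 were among the 66. It was 104 in males alone and 51 in females alone, of which 54 and 34 were among the 66. Of the 66 genes, 62 kept a vehicle difference at or below -1 in males alone and 45 in females alone. All 66 stayed below 0 in each sex. It ran from 51 to 78 without 1 library. The TMM and RLE scalings moved the median KO minus WT difference of all rows tested from 0.16 to 0.02 (TMM) and -0.03 (RLE), and that of the 66 genes to -1.33 and -1.38. All 66 genes kept a vehicle difference at or below -1 under both scalings. Those of the 66 no longer taken therefore failed a limit on the stimulus responses. Calls of KO against WT in sorted cells with vehicle were 0 with the compared groups alone and 0 within each run of library numbers, and at 24 h 0 within each run. At 6 h they were 0 with the compared groups alone and 0 to 1 without 1 library. Shares of all rows called in these KO against WT fits are not given here. Nothing is therefore read from these counts about the 66 genes as a set. Calls 24 h after LPS within the second run were 6 in KO (7.25% of all rows called) and 11 in WT (11.9%). Calls 6 h after LPS in KO were 8 with DESeq2 (12.1% of all rows), 16 with voom (17.3%), 0 with the compared groups alone (0%) and 1 to 16 without 1 library (2 and 4.55% without KO vehicle replicate 2, 16 and 14.7% without KO LPS replicate 1, 1 and 0.856% without LPS replicate 2, 1 and 0.844% without LPS replicate 3). In WT they were 9 with RLE (10.6% of all rows), 10 with DESeq2 (14.8%), 22 with voom (26.0%), 0 with the compared groups alone (0%) and 1 to 14 without 1 library (2, 1 and 14 without LPS replicates 1, 2 and 3, with 3.22%, 2.6% and 18.9% of all rows). DESeq2 called 2 genes for the genotype difference between sexes in culture. The cause of these changes was not tested.

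With the replicate number as a block, 1 gene was called for KO against WT with vehicle, at 6 h and at 24 h, and 15 (12 higher and 3 lower) in KO and 20 (16 and 4) in WT 24 h after LPS. Shares of all rows called with this block are not given here. The block, whose numbers do not pair the libraries, changed no count by over 1.5 times. No direction reversed among the results recomputed. Where leaving out a library left a group with few samples, the spread was that of all groups. Depth limits what the sorted libraries can show for genes with few counts.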
